A study of Mus musculus with 9 samples.

Results

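Collagens outside types IV and VIII were followed in whole mouse corneas by bulk RNA sequencing. They comprise every gene whose symbol has the form of a collagen chain, apart from the chains of types IV and VIII, which form sheet-like networks in basement membranes and in Descemet's membrane. The rule took 36 of the 34142 gene names in the count table, out of 44 collagen genes in all, and all 36 are annotated as protein coding in GENCODE M21. Col21a1 was not analysed here. By class they were 11 fibril-forming chains, 9 fibril-associated chains, 6 type VI chains, 4 transmembrane collagens, 2 multiplexins, the anchoring fibril chain Col7a1, the short-chain collagen Col10a1, and Col26a1 and Col28a1. In all, 34 of them passed edgeR's filter on low counts; Col19a1, with 0 to 8 counts a library, and Col22a1, with 0 to 17, did not and have no test.

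The 9 libraries came from 3 groups of mice. WT corneas were untreated (n = 3), Aire KO corneas were untreated (n = 2, called KO below), and Aire KO corneas were treated with PBS (n = 4, called KO + PBS). Aire is the thymic factor that exposes developing T cells to tissue proteins, and the series design names its knockout as dry eye disease. PBS is a buffered salt solution. A further group treated with Lacripep was not analysed here. Sample titles give 5 wk for both untreated groups and 24 hr for the PBS group, whereas the series design gives day 7 of treatment and 6 wk of age. Neither strain, sex nor the number of mice behind a library is stated. Replicates are named as biological, and p-values measure the spread between these libraries only.

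Collagens are trimers of chains that wind into a triple helix. The corneal stroma is made of thin, evenly spaced type I fibrils that contain type V collagen, and its resident cells, the keratocytes, make most of it. Type V chains set fibril diameter, fibril-associated collagens such as types XII and XIV coat the fibrils, and type VI forms beaded filaments between them. The epithelium holds another set: type XVII spans the basal cell membrane at hemidesmosomes, and type VII forms the anchoring fibrils beneath them.

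The libraries held 22913807 to 104480485 counts. A limit of 3 counts stood at 0.0287 to 0.131 CPM of all counts, without TMM scaling, depending on the library. Aire itself had 0 to 16 counts in every library, too few to check the genotype. Krt12, the keratin that defines the corneal epithelium, was at 22435 to 38293 CPM in the untreated and 3749 to 6018 CPM in the PBS libraries. Other epithelial genes did not all move with it, so Krt12 alone does not measure the amount of epithelium. Libraries of untreated and of PBS-treated corneas differed in kind: processed pseudogenes took 16.6 to 20.9% of the counts in untreated and 0.209 to 0.267% in PBS libraries, and mitochondrial genes took 0 and 0.797 to 6.13%. Treatment and library kind therefore cannot be told apart in any comparison with KO + PBS. KO + PBS replicate 2 stood apart within its group, with the 6.13% mitochondrial share against 0.797 to 0.924% in the other 3, and values without it are given beside the results that rest on it.

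The stretches just before the starts of 4 of these genes are shown because their expression moved in different ways below: Col5a1, Col6a2 and Col13a1 were lower and Col17a1 was higher in KO than in WT. Each is the 150 bases before the gene's start in RefSeq on GRCm38.p6, written 5′ to 3′ on the gene's strand; that of Col17a1 ends 52 bases further upstream, where the GENCODE gene begins. Capitals mark matches on either strand to the CCAAT box (CCAAT), to the core of the GC box (GGGCGG), to the TATA box (TATAAA) or to the AP-1 site (TGANTCA), motifs that do not overlap in these stretches.
Col5a1, chr2:27886275-27886424, plus strand: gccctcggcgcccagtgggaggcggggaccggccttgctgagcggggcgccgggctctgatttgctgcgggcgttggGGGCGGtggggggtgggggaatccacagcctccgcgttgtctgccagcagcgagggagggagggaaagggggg
Col6a2, chr10:76623631-76623780, minus strand: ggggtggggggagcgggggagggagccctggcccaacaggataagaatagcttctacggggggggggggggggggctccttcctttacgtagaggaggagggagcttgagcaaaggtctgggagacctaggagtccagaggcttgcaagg
Col13a1, chr10:61979109-61979258, minus strand: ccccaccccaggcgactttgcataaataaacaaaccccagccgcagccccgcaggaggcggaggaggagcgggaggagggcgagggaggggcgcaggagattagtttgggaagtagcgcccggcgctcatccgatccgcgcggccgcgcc
Col17a1, chr19:47692095-47692244, minus strand: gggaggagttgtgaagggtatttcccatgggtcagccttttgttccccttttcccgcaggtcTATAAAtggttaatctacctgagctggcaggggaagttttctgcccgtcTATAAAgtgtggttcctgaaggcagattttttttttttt
The stretch of Col17a1 held 2 TATAAA matches and was 45.3% G and C, the stretch of Col5a1 held 1 GGGCGG match and was 74.7% G and C, and those of Col6a2 and Col13a1 held no match within these 150 bases. Within the full 250 bases before the RefSeq start, Col6a2 had a GGGCGG and Col13a1 a TATAAA match. RefSeq windows were matched for 28 of the 36 genes. Each gene was given the window nearest its GENCODE start, whereas the comparison used every window. The windows of Col25a1, Col27a1 and Col1a2 began 49344, 1408 and 804 bases from that start, and each held GGGCGG. Over the 250 bases before the start, GGGCGG was found in 16 of the 28 (57.1%) against 32.7% of all 32851 windows, CCAAT in 9 (32.1%) against 33.8%, TATAAA in 5 (17.9%) against 12.4%, and TGANTCA in 1 (3.57%) against 6.75%. Median G and C content was 58.4% in these and 52.4% in all windows. These shares are descriptions of letters, not of factor binding.

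In WT corneas the collagen counts came mainly from stromal type I and type VI chains and from epithelial type XVII. The 36 genes took 1.20, 1.13 and 1.33% of all counts in WT, 0.487 and 0.490% in untreated KO, and 0.611, 1.31, 0.608 and 0.824% in KO + PBS. Per length of annotated exons (CPM per kilobase, mean ± SD), Col1a1, the main chain of the stromal fibrils (chromosome 11, 94936224 to 94953042 on GRCm38), led in WT with 731 ± 37.4 (n = 3). It was followed by Col6a1 at 319 ± 7.86, Col1a2, the partner chain of type I, at 284 ± 17.1, Col17a1 at 267 ± 19.1 and Col6a2 at 156 ± 2.49. Col1a2 and Col17a1 did not differ beyond their spread, and with the longest transcript as the length the order became Col1a1, Col1a2, Col6a1, Col17a1, Col6a2. In KO the order per length began with Col17a1 at 395 ± 17.2 (n = 2), ahead of Col1a1 at 239 ± 50.6. Col1a2 had 91.0 ± 7.76, Col6a1 70.5 ± 22.7 and Col6a2 32.7 ± 13.8 in KO. In KO + PBS Col17a1 again had the highest mean, 361 ± 153 (n = 4), and Col1a1 had 189.6 ± 137, values whose SDs overlap.

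**Figure D1:**
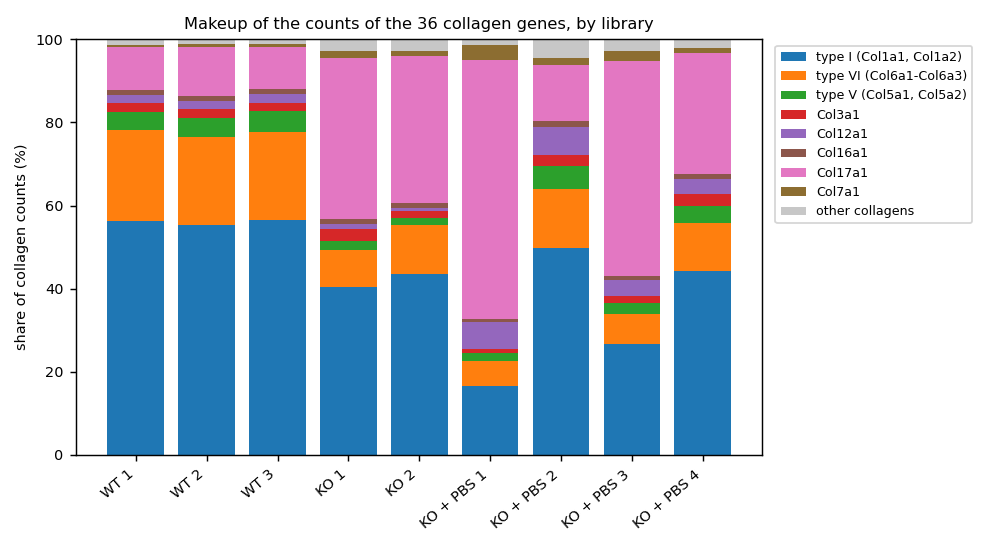
Share of the counts of the 36 collagen genes taken by each gene or type in each of the 9 libraries (vertical axis, percent of collagen counts, not corrected for gene length). Type I took 55.3 to 56.5% in WT and 40.5 and 43.4% in KO, and Col17a1 took 10.2 to 11.9% in WT and 35.4 and 38.9% in KO; KO + PBS libraries ranged from 13.6 to 62.4% for Col17a1.

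Untreated KO corneas held less RNA of the stromal collagens than WT corneas. The type I chains, the main type V chains Col5a1 and Col5a2, the 3 main type VI chains, and types XII, XIII and XVI were lower in both KO libraries than in all 3 WT libraries, by 2 to 17 times, whereas Col17a1 and Col18a1 were higher. How many of these differences passed the test depended on the libraries that shared the estimate of spread. In the edgeR quasi-likelihood fit to all 9 libraries, 0 of 34 genes rose and 1 fell, Col13a1, at adjusted p under 0.05. Of all 18489 genes tested, 0.963% rose and 0.703% fell (1.67% either way). An unadjusted p under 0.05 was found for 13 of the 34, against 3356 of the 18489. DESeq2 called 1 higher (Col26a1) and 8 lower, where it called 2.16 and 3.03% of all 34142 gene names. In the same test on the 5 untreated libraries alone, 4 of 33 rose and 16 fell, where 11.5% of 18006 genes rose and 8.99% fell (20.4% either way). The median log2 fold change was -0.55 over the 34 and -0.02 over all genes in the fit to all 9 libraries, and -0.41 and -0.02 in the fit to 5. The KO libraries were all below the WT libraries for 17 of the 34 tested, against 26.4% of all genes tested, and all above for 7, against 24.9%.

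The 10 genes called lower in the 5-library fit that kept the call when each library was left out in turn were Col1a1, Col1a2, Col5a1, Col5a2, Col6a1, Col6a2, Col6a3, Col12a1, Col13a1 and Col16a1. A group reduced to 1 library is assumed there to vary like the other. More of all genes were called without 1 KO library than with all 5 libraries, so keeping a call there is no stricter test. Without 1 WT library, 3.43 to 3.84% of all genes were called lower, against 8.99% with all 5. Of the other 6 lower genes, Col3a1 and Col27a1 lost the call without WT replicate 2 or 3, Col14a1 and Col24a1 without any 1 WT library, and Col11a1 and Col25a1 in 4 of the 5 fits. The 4 higher genes lost it as well: Col17a1 without any 1 WT library, and Col2a1, Col18a1 and Col26a1 in 4 of the 5 fits. In the fit to all 9 libraries, leaving out KO + PBS replicate 2 raised the number that fell from 1 to 10 (Col1a2, Col5a1, Col5a2, Col6a1, Col6a2, Col6a3, Col12a1, Col13a1, Col16a1 and Col25a1), while the share of all genes that fell went from 0.703 to 5.44%. Leaving out any 1 of the other libraries except KO + PBS replicate 1 ended the call of Col13a1. Without any 1 WT library, however, the fit to all called 0 of all genes tested in either direction. Below, fell and rose in the comparison of KO with WT refer to the 5-library fit, and the adjusted p of the 9-library fit is given beside each. The 9-library fit was the planned main test and the 5-library fit an alternative. Comparisons with KO + PBS are led by the 9-library fit, so in each comparison the fit with more calls among these genes comes first.

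**Figure D2:**
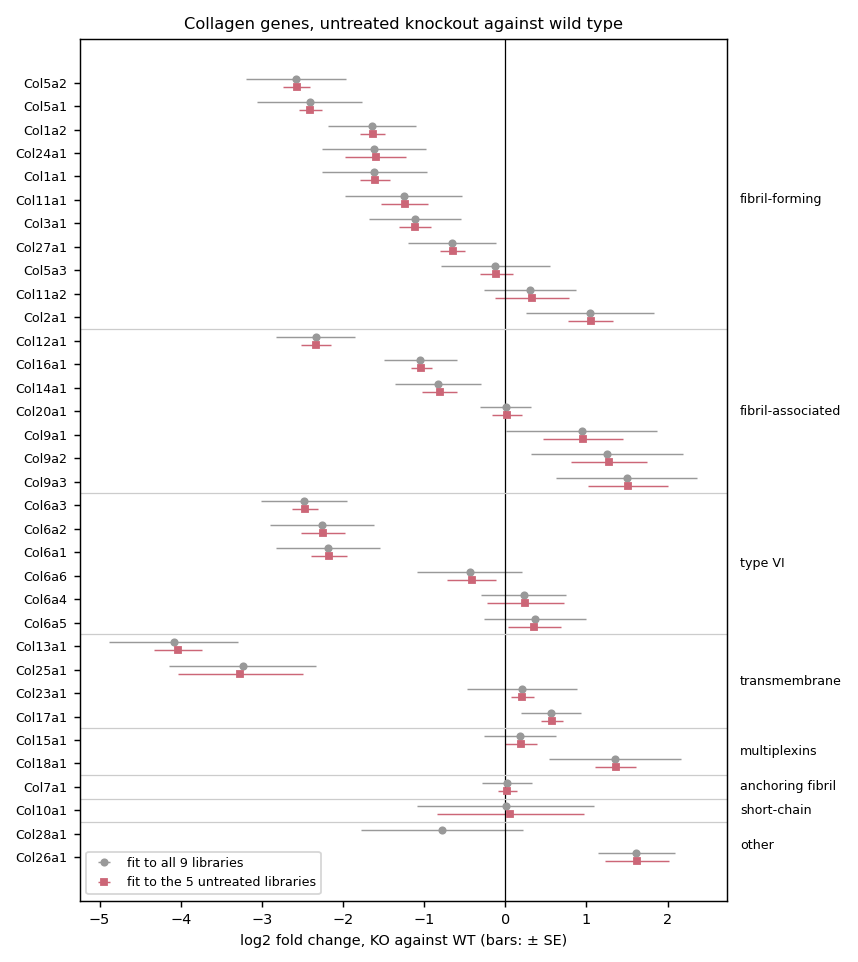
Log2 fold change of KO against WT (horizontal axis) for the 34 collagen genes tested, by class, in the fit to all 9 libraries (grey circles) and in the fit to the 5 untreated libraries (red squares, 33 genes), with SE bars. Estimates of both fits lie close together, from -4.09 for Col13a1 to 1.62 for Col26a1 in the fit to 9, and the bars of the 5-library fit are shorter.

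Among the 11 fibril-forming chains, 8 fell, 1 rose and 2 did not pass the test. Col1a1 stood at 4592, 4725 and 5068 CPM in WT and 1333 and 1803 in KO. Both KO libraries lay far below all WT libraries, a log2 fold change of -1.60 ± 0.19 (SE; adjusted p = 0.00283, and 0.235 in the 9-library fit). Col1a2 (chromosome 6, 4504814 to 4541544) was at 3594, 3298 and 3711 CPM in WT and 1063 and 1199 in KO. Its log2 fold change was close to that of its partner, -1.64 ± 0.15 (adjusted p = 0.00145, and 0.162). In a bulk sample, fewer cells of a type and less RNA per cell cannot be told apart, here or below.

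The main type V chains fell, with larger estimates than the type I chains. Col5a1 (chromosome 2, 27886425 to 28039514), the chain that limits fibril diameter in the cornea, was at 376, 369 and 429 CPM in WT and 74.2 and 73.1 in KO. The KO libraries lay together, well below WT, and the log2 fold change was -2.40 ± 0.14 (adjusted p = 0.000369, and 0.0968 in the 9-library fit). Col5a2, the other chain of the main type V trimer, was at 279, 296 and 357 CPM in WT and 54.8 and 49.2 in KO and fell by 2.57 ± 0.17 on the log2 scale (adjusted p = 0.000423, and 0.0738). Col5a3, a less common type V chain, was at 13.4, 10.4 and 14.7 CPM in WT and 10.2 and 13.4 in KO; its groups overlapped and it did not pass the test (adjusted p = 0.744).

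The other fibril-forming chains were less abundant. Col3a1, a chain of pliable tissues and of wounds, was at 289, 315 and 321 CPM in WT and 173 and 112 in KO, without overlap (-1.11 ± 0.20, adjusted p = 0.0106, and 0.341). Col11a1, a relative of the type V chains, was at 10.1, 8.68 and 15.7 CPM in WT, 4.32 and 5.27 in untreated KO and 3.49, 26.3, 7.998 and 8.86 in KO + PBS and fell (-1.24 ± 0.29, adjusted p = 0.0281, and 0.400). Col24a1 and Col27a1 are fibril-forming chains that form part of the same family. Col24a1 was at 2.06, 2.03 and 3.46 CPM in WT and 0.719 and 0.906 in KO (-1.60 ± 0.38, adjusted p = 0.0277, and 0.230). Col27a1 was at 12.9, 15.1 and 16.2 CPM in WT, 8.92 and 9.72 in untreated KO and 10.5, 26.5, 6.80 and 7.23 in KO + PBS (-0.65 ± 0.15, adjusted p = 0.0268, and 0.579). Both were lower in every KO library than in every WT library. Col2a1, the cartilage and vitreous collagen, went the other way, at 2.19, 1.53 and 2.11 CPM in WT, 4.56 and 3.46 in untreated KO and 0.227, 2.53, 3.36 and 3.07 in KO + PBS (1.05 ± 0.28, adjusted p = 0.0381, and 0.538). Col11a2 ranged from 4.80 to 15.9 CPM in the 2 KO libraries, which enclosed all WT values, and did not pass.

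Of the 9 fibril-associated chains, 7 were tested; 3 fell and 0 rose. Col12a1 (chromosome 9, 79598991 to 79718831), which links fibrils to the matrix around them, was at 286, 274 and 336 CPM in WT and 67.9 and 50.5 in KO. Every KO library lay below every WT library, and it fell by 2.33 ± 0.19 on the log2 scale (adjusted p = 0.000863, and 0.0528 in the 9-library fit). Col16a1 was at 180.3, 176 and 176 CPM in WT, 78.4 and 93.4 in untreated KO and 36.5, 116, 40.9 and 65.3 in KO + PBS with a smaller estimate (-1.04 ± 0.13, adjusted p = 0.00336, and 0.262). Col14a1, the relative of Col12a1 on stromal fibrils, was at 40.9, 37.8 and 35.2 CPM in WT, 16.02 and 26.8 in untreated KO and 6.40, 29.5, 12.2 and 19.0 in KO + PBS, and it fell with a smaller estimate again (-0.81 ± 0.22, adjusted p = 0.0434, and 0.461). The 3 type IX genes, whose product sits on type II fibrils in cartilage and vitreous, were above WT in both KO libraries and did not pass, with log2 fold changes of 0.96 ± 0.49 for Col9a1, 1.28 ± 0.46 for Col9a2 and 1.51 ± 0.49 for Col9a3 (adjusted p = 0.211, 0.0997 and 0.0768). Col20a1 did not pass, at 7.64 ± 0.554 CPM in WT and 7.68 ± 1.43 in KO (adjusted p = 0.948).

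Of the 6 type VI chains, 3 fell. The 3 chains of the main heterotrimer fell, while the 3 genes for chains that can take the place of Col6a3 in it (Col6a4, Col6a5 and Col6a6) did not pass the test. Col6a1 (chromosome 10, 76708792 to 76726168) was at 1421, 1359 and 1417 CPM in WT and 239 and 379 in KO, and its log2 fold change was -2.17 ± 0.23 (adjusted p = 0.00203, and 0.126). Col6a2, its neighbour on the chromosome (chromosome 10, 76595762 to 76623630), was at 1288, 1292 and 1326 CPM in WT and 191 and 353 in KO (-2.25 ± 0.28, adjusted p = 0.00363, and 0.114). Col6a3, the longest of the main chains, was at 469, 428 and 538 CPM in WT and 88.1 and 83.5 in KO and fell by 2.47 ± 0.16 (adjusted p = 0.000424, and 0.0539). For all 3 the KO libraries lay below WT without overlap. Col6a4 had 0.381 to 0.612 CPM in WT and 0.384 and 0.721 in KO, Col6a5 had 5.80 and 2.80 CPM in KO around the 3.08 to 3.65 of WT, and Col6a6 had 1.49 and 2.39 against 2.40 to 3.08.

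Of the 4 transmembrane collagens, 2 fell and 1 rose. Col13a1 (chromosome 10, 61838236 to 61979108), a membrane collagen of adhesion sites, was at 13.5, 12.9 and 11.2 CPM in WT and 0.480 and 0.947 in KO. The 150 bases printed above held none of the motifs searched, and the 250-base window held a TATAAA match. Its KO levels were a small fraction of WT and it was the gene called in both fits, with log2 fold changes of -4.03 ± 0.30 (adjusted p = 0.000619) and -4.09 ± 0.79 (adjusted p = 0.0444 in the 9-library fit). Col17a1 (chromosome 19, 47646344 to 47692094), the gene with TATAAA matches in the stretch printed above, was at 1501, 1729 and 1587 CPM in WT and 2301 and 2448 in KO, higher in both KO libraries than in any WT library (0.57 ± 0.14, adjusted p = 0.0284, and 0.466). Col25a1, a neuronal membrane collagen whose KO levels were close to the limit of counting, was at 0.317, 0.294 and 0.325 CPM in WT, 0.0480 and 0.0206 in untreated KO and 2.42, 3.46, 1.48 and 0.752 in KO + PBS, which is 46 counts in WT and 2 in KO. The ratio of KO to WT levels was 0.0941, with an exact 95% interval of 0.0111 to 0.360 that covers counting error only; it was called in the 5-library fit (adjusted p = 0.0276, and 0.111). Col23a1 did not pass, with 32.5 ± 3.98 CPM in WT and 37.5 ± 4.92 in KO.

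Of the remaining genes, Col18a1, the basement membrane multiplexin from which endostatin is cut, was at 22.5, 12.9 and 12.7 CPM in WT, 42.0 and 39.6 in untreated KO and 8.94, 95.9, 23.5 and 17.1 in KO + PBS and rose (1.36 ± 0.26, adjusted p = 0.0146, and 0.430). Col26a1, a low-abundance gene, was at 0.317, 0.306 and 0.270 CPM in WT and 0.959 and 0.886 in KO and rose (1.63 ± 0.40, adjusted p = 0.0308, and 0.127). For both the groups were separate. Col15a1, the other multiplexin, was at 10.5 ± 1.39 CPM in WT and 11.9 ± 2.65 in KO and did not pass. Col7a1, the anchoring fibril chain beneath the epithelium, did not pass, at 82.7 ± 6.87 and 83.8 ± 7.07 CPM with a log2 fold change of 0.03 ± 0.12 (adjusted p = 0.899). Col10a1, the collagen of growth-plate cartilage, had 0.466 ± 0.504 and 0.453 ± 0.0297 CPM, and Col28a1 had 0.150 ± 0.0786 and 0.0891 ± 0.00957 CPM; neither passed in the 9-library fit, and Col28a1 was not tested in the 5-library fit.

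**Figure D3:**
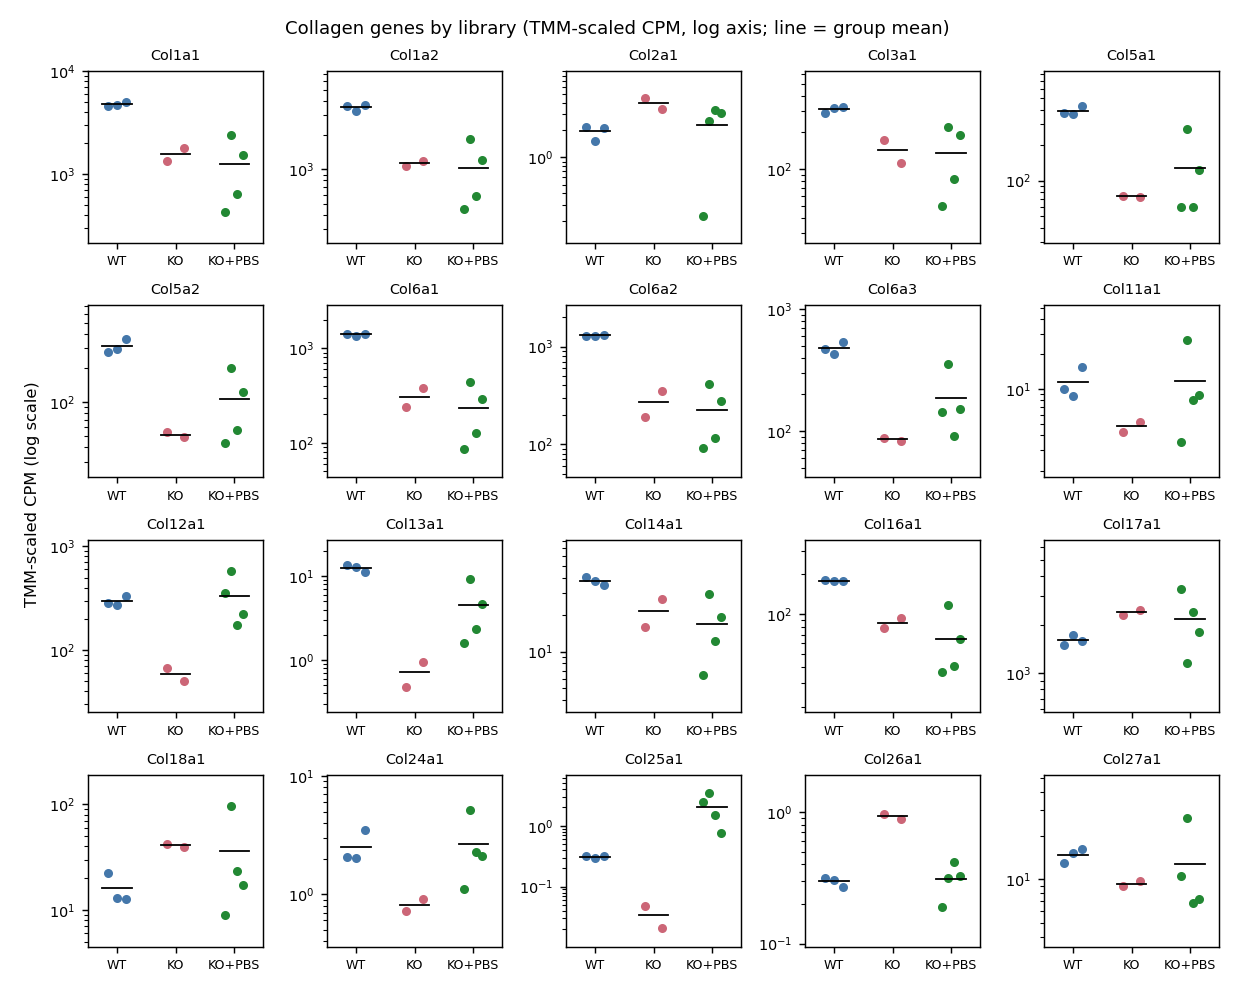
TMM-scaled CPM (log axes, a scale of its own in each panel) of the 20 collagen genes called in KO against WT in either fit; points are libraries and lines are group means. In KO the type I, V and VI chains plotted lie below WT without overlap, Col17a1, Col18a1, Col2a1 and Col26a1 lie above, and the KO + PBS libraries are scattered, for Col1a1 from 426 to 2395 CPM.

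The proportions among stromal collagens were then taken within each library, where scaling between libraries has no part. These 9 ratios were chosen after their values were seen, over 27 comparisons, and the smallest two-sided p that the exact permutation test can give is 0.2 for KO against WT, 0.133 for KO + PBS against KO and 0.0571 for KO + PBS against WT, so none can pass (smallest Benjamini-Hochberg values 0.318, 0.300 and 0.257). As a percentage of type I counts, the counts of Col5a1 and Col5a2 came to 7.997, 8.29 and 8.95% in WT, 5.38 and 4.07% in untreated KO and 11.8, 11.2, 9.43 and 9.05% in KO + PBS. KO lay below WT and KO + PBS above both, without overlap. Per 100 Col1a1 counts, the libraries held counts of Kera, the keratan sulfate proteoglycan of keratocytes, numbering 10.9, 9.27 and 9.91 in WT, 1.82 and 1.28 in untreated KO and 9.51, 7.72, 9.14 and 10.4 in KO + PBS. The KO values were several times lower than all others, and KO + PBS overlapped WT. Relative to Col1a1 counts, Col12a1 counts came to 6.24, 5.79 and 6.63% in WT, 5.09 and 2.80% in untreated KO and 82.6, 24.1, 27.1 and 14.8% in KO + PBS. They were lowest in KO and highest in KO + PBS. Col3a1 counts came to 6.29, 6.68 and 6.33% in WT, 12.9 and 6.23% in untreated KO and 11.7, 9.25, 13.1 and 12.5% in KO + PBS on the same scale; KO + PBS lay above WT and the KO values were spread over both. The chains of type I had a narrower range of ratios: Col1a2 counts per Col1a1 count were 0.783, 0.698 and 0.732 in WT, 0.797 and 0.665 in untreated KO and 1.06, 0.770, 0.922 and 0.800 in KO + PBS. Col6a2 counts per Col6a1 count were 0.906, 0.951 and 0.936 in WT, 0.800 and 0.932 in untreated KO and 1.06, 0.946, 0.921 and 0.943 in KO + PBS. In both pairs KO overlapped WT. Col6a3 counts per Col6a1 count were 0.330, 0.315 and 0.380 in WT, 0.369 and 0.220 in untreated KO and 1.67, 0.818, 0.718 and 0.516 in KO + PBS, above the other groups in every KO + PBS library. For the fibril-associated pair, Col14a1 counts per 100 Col12a1 counts were 14.3, 13.8 and 10.5 in WT, 23.6 and 53.0 in untreated KO and 1.82, 5.12, 7.04 and 8.48 in KO + PBS, highest in KO and lowest in KO + PBS. For the epithelial against the stromal gene, Col17a1 counts per Col1a1 count were 0.327, 0.366 and 0.313 in WT, 1.73 and 1.36 in untreated KO and 7.79, 0.482, 3.73 and 1.19 in KO + PBS, above WT in all 6 KO and KO + PBS libraries.

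**Figure D4:**
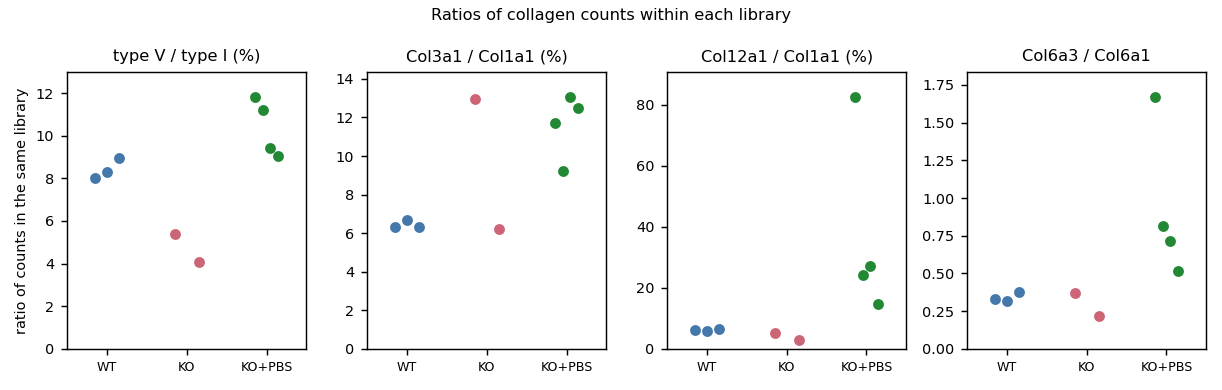
Ratios of collagen counts within each library (linear axes from 0): type V to type I, Col3a1 to Col1a1 and Col12a1 to Col1a1 in percent, and Col6a3 counts per Col6a1 count, for WT (3 points), KO (2) and KO + PBS (4). Type V to type I is lowest in KO (4.07 and 5.38%), and Col12a1 to Col1a1 is highest in KO + PBS (14.8 to 82.6%).

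Genes that modify, process and bind collagen were taken from lists of 22, 13 and 9 genes. In KO against WT, the 9-library fit called 1 of 22 modification, folding and export genes lower, 1 of 13 processing and cross-linking genes lower and 0 of 9 receptor genes (1 at an unadjusted p under 0.05), with no gene higher in any list; the median log2 fold changes were -0.43, -0.62 and -0.21, against -0.02 over all genes. The 5-library fit called 11 of 22, 5 of 12 and 3 of 9 lower and 0 higher, where 8.99% of all genes were lower and 11.5% higher. Plod1, a lysyl hydroxylase, was at 226 ± 13.1 CPM in WT and 41.6 ± 3.35 in KO (-2.44 ± 0.50, adjusted p = 0.0526 in the 9-library and 0.000276 in the 5-library fit). Colgalt2, which adds galactose to hydroxylysine, was at 27.0 ± 2.67 and 1.90 ± 0.172 CPM (-3.82 ± 0.82, adjusted p = 0.0561 and 0.000153), and its relative Colgalt1 was at 10.9 ± 1.61 and 4.58 ± 0.978 (-1.26 ± 0.21, adjusted p = 0.0307 and 0.00962). Pcolce2, which speeds removal of the C-terminal propeptide, was at 24.7 ± 3.37 and 6.03 ± 2.02 CPM (-2.03 ± 0.34, adjusted p = 0.0316 and 0.00308). Among the receptors, Ddr2, a kinase that fibrillar collagen activates, was at 29.5 ± 4.28 and 11.6 ± 0.0407 CPM, and Itga11, an integrin chain for type I collagen, at 16.8 ± 2.30 and 5.76 ± 1.21; both were called lower in the 5-library fit only (adjusted p = 0.00302 and 0.00390, against 0.188 and 0.277 in the fit to 9).

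Markers of the cell types a cornea sample can hold differed between the groups as well. Marker sums, here and below, are CPM of all counts in a library, without the TMM scaling of the gene values. TMM factors ran from 0.709 in KO replicate 2 to 1.54 in KO + PBS replicate 2. The sums are therefore not on the scale of the collagen levels. The 10 keratocyte markers summed to 2848 to 3290.3 CPM in WT, 479 and 805 in untreated KO and 739.5, 5687, 1254 and 2118 in KO + PBS; in KO against WT 6 of 10 fell in the 9-library fit and 8 in the 5-library fit. The 7 corneal endothelium markers summed to 849 to 923 CPM in WT, 402 and 283 in untreated KO and 2123, 4551, 1725 and 1583 in KO + PBS, with 1 and 6 of 7 lower in KO. The 9 fibroblast and myofibroblast markers summed to 381 to 434 CPM in WT, 292 and 238 in untreated KO and 480.1, 1287, 391 and 422 in KO + PBS, with 2 and 5 lower. The 5 leukocyte markers summed to 90.9 to 105 CPM in WT, 248 and 132 in untreated KO and 258, 147, 282 and 403 in KO + PBS, with 0 and 3 higher. Cartilage and sclera markers summed to 90.1 to 97.6 CPM in WT, 19.0 and 47.0 in untreated KO and 45.7, 141, 53.3 and 51.9 in KO + PBS, with 1 of 5 tested lower in both fits. The 9-library fit called 0 markers of Schwann cells, blood vessels, pericytes and smooth muscle, skeletal muscle, conjunctiva or glands in KO against WT. The 5-library fit called 2 of 4 pericyte and smooth muscle markers and 1 of 5 gland markers higher, 1 higher and 1 lower among Schwann cell and among blood vessel markers, and 0 of conjunctiva and skeletal muscle. Over all genes tested, 0.963% were higher and 0.703% lower in the 9-library fit, and 11.5 and 8.99% in the 5-library fit. No list had a marker at 0 in all libraries, and the part of any of these cell types in the collagen values was not tested.

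KO + PBS corneas held more RNA of Col12a1, Col13a1 and Col25a1 than untreated KO corneas in both fits. Col1a1, Col1a2, Col6a1 and Col6a2 did not pass the test, and their KO + PBS libraries lay on both sides of the KO values. In KO + PBS against KO, 5 of 34 genes rose and 3 fell in the 9-library fit. Of all genes tested, 23.6% rose and 29.7% fell (53.4% either way). With upper-quartile scaling 6 rose and 2 fell, where 28.5 and 26.4% of all genes did. In the fit to these groups alone, 3 of 33 rose and 0 fell, where 20.7 and 22.8% of genes did. An unadjusted p under 0.05 was found there for 7 of the 33, against 9185 of all 17684 genes. DESeq2 on all libraries called 6 higher and 3 lower, where it called 14.6 and 18.6% of all gene names. The median log2 fold change was -0.00 over the collagen genes and -0.02 over all genes in the 9-library fit, and 0.03 and 0.10 in the fit to 2 groups. The KO + PBS libraries were all above KO for 6 of the 34 tested, against 26.9% of all genes tested, and all below for 4, against 34%. In the 9-library fit Col12a1 and Col25a1 kept the call when each library was left out, Col13a1 and Col26a1 lost it without either KO library, Col6a5 without KO replicate 1, and Col15a1, Col6a4 and Col24a1 without any 1 of 4, 5 and 7 libraries. In the fit to 2 groups Col12a1 and Col13a1 lost it without either KO library, Col13a1 also without KO + PBS replicate 3 or 4, and Col25a1 without KO replicate 2. This comparison shares its KO libraries with the one above and its KO + PBS libraries with the one below.

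Col12a1 was at 352, 577, 173 and 224 CPM in the 4 KO + PBS libraries, above both KO libraries in each and around the WT values. It rose by 2.49 ± 0.48 on the log2 scale (adjusted p = 0.00213, and 0.0101 in the fit to 2 groups), and without KO + PBS replicate 2 by 2.09 ± 0.31, adjusted p = 0.000483. Against WT its log2 fold change was 0.15 ± 0.37 (adjusted p = 0.747). Col13a1 was at 1.59, 9.34, 2.35 and 4.65 CPM, between the KO and WT values in each library. It rose against KO by 2.61 ± 0.73 (adjusted p = 0.0142, and 0.0474 in the fit to 2 groups; without replicate 2 1.95 ± 0.49, adjusted p = 0.00827) and was below WT by 1.48 ± 0.54 (adjusted p = 0.0408, not called in the fit to 2 groups, 0.0621). Col25a1 was at 2.42, 3.46, 1.48 and 0.752 CPM, above both other groups in all 4 libraries. With 262 counts against 2, the ratio of KO + PBS to KO was 71.1, with an exact 95% interval of 19.5 to 590 for counting error (adjusted p = 0.000585 and 0.00449). Against WT it rose by 2.69 ± 0.57 (adjusted p = 0.00328).

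Col24a1 and Col6a4 also rose in the 9-library fit and not in the fit to 2 groups. Col24a1 was at 1.099, 5.14, 2.29 and 2.09 CPM (1.70 ± 0.63, adjusted p = 0.0462 and 0.0935), and Col6a4 was at 2.27, 0.909, 1.68 and 1.80 CPM (1.56 ± 0.53, adjusted p = 0.0329 and 0.0700). Each lay above both KO libraries in all 4. Col6a5, Col26a1 and Col15a1 fell in the 9-library fit only. Col6a5 was at 3.08, 3.26 and 3.65 CPM in WT, 5.80 and 2.80 in untreated KO and 0.341, 1.96, 0.811 and 0.720 in KO + PBS (-2.15 ± 0.58, adjusted p = 0.0127 and 0.0571). Col26a1 was at 0.189, 0.312, 0.419 and 0.327 CPM in KO + PBS, below both KO libraries and on both sides of the WT values (-1.54 ± 0.45, adjusted p = 0.0168 and 0.0728). Col15a1 was at 2.27, 5.595, 3.72 and 7.92 CPM (-1.29 ± 0.41, adjusted p = 0.0257 and 0.0975).

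The most abundant stromal chains did not pass in KO + PBS against KO. Col1a1 was at 426, 2395, 639.7 and 1516 CPM and Col6a1 at 86.4, 436, 126 and 293 CPM, ranges that enclose the KO values, with log2 fold changes of -0.33 ± 0.57 (adjusted p = 0.649) and -0.39 ± 0.55 (adjusted p = 0.576). Col1a2 was at 452, 1844, 589.5 and 1213 CPM, Col6a2 at 91.2, 413, 116 and 276 CPM and Col3a1 at 49.9, 221, 83.5 and 189 CPM. The type V chains were higher in the mean and overlapped KO: Col5a1 was at 60.2, 273, 59.3 and 124 CPM (0.81 ± 0.58, adjusted p = 0.265) and Col5a2 at 43.5, 202, 56.6 and 123 CPM (1.03 ± 0.55, adjusted p = 0.145). Col6a3 was at 144, 357, 90.5 and 151 CPM, above both KO libraries in all 4 and just short of a call (1.11 ± 0.48, adjusted p = 0.0762). Col17a1 was at 3322, 1156, 2387 and 1809.9 CPM, on both sides of KO (-0.13 ± 0.35, adjusted p = 0.774). Signs of the log2 fold changes of Col1a1, Col1a2, Col6a1, Col6a2 and Col17a1 turned under at least 1 alternative and carry no direction.

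Against WT, the 9-library fit called the type I chains, Col5a1, Col5a2, 5 of the 6 type VI chains and Col16a1 lower in KO + PBS. It called Col6a4, Col25a1 and the type IX chains Col9a1 and Col9a3 higher. In that fit 13 of 34 genes fell and 4 rose, where 30% of all genes fell and 27.1% rose, 57.1% either way. With upper-quartile scaling 9 fell and 5 rose, where 27.5 and 30.6% of all genes did. In the fit to 2 groups 9 of 33 fell and 3 rose, where 29.4 and 27.8% did. The numbers that fell stood near these shares, and those that rose stood below them. Col6a6 and Col9a3 were not called in the fit to 2 groups. The KO + PBS libraries were all below WT for 14 of the 34, against 33.5% of all genes tested, and all above for 2, against 26.7%. The median log2 fold change was -0.10 over the collagen genes and 0.05 over all genes. When each library was left out of the 9-library fit, Col1a1, Col1a2, Col6a1, Col6a2, Col6a4, Col16a1 and Col25a1 kept the call. In the fit to 2 groups 5 of 12 did (Col1a2, Col6a1, Col6a2, Col6a4 and Col25a1). There, Col16a1 lost it without any 1 WT library and Col1a1 without any 1 WT library or KO + PBS replicate 3. Col5a1 and Col6a3 kept it in 1 of the 7 fits, and Col5a2, Col6a5 and Col9a1 in 2. In the fit to 9, without WT replicate 3 Col5a1, Col5a2, Col6a3, Col6a5 and Col9a1 lost it, and all of these but Col6a3 also without WT replicate 2. Col13a1, Col14a1, Col15a1, Col6a6 and Col9a3 lost it in 6 to 8 of the 9 fits. Col6a1 and Col6a2 had the largest falls, -2.57 ± 0.50 (adjusted p = 0.00211) and -2.54 ± 0.50 (adjusted p = 0.00214). Col1a1 had -1.95 ± 0.51 (adjusted p = 0.0103) and Col1a2 -1.79 ± 0.43 (adjusted p = 0.00642). The type V chains had -1.60 ± 0.49 for Col5a1 and -1.55 ± 0.46 for Col5a2 (adjusted p = 0.0201 and 0.0186). Col6a3, Col6a5, Col6a6, Col13a1, Col14a1, Col15a1 and Col16a1 fell as well, by 1.11 for Col15a1 to 1.78 for Col6a5 on the log2 scale. Col3a1 was lower in all 4 libraries and lay just outside the threshold (adjusted p = 0.05001).

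The genes higher in KO + PBS than in WT were Col25a1, Col6a4, Col9a1 and Col9a3. Col9a1 was at 0.920, 0.380 and 0.460 CPM in WT, 1.29 and 0.947 in untreated KO and 0.530, 7.67, 5.84 and 1.93 in KO + PBS. Replicate 1 overlapped WT and the other 3 did not (2.79 ± 0.85, adjusted p = 0.0198, and 0.0317 in the fit to 2 groups). Col9a3 was at 3.84, 1.51 and 1.16 CPM in WT, 6.62 and 5.54 in untreated KO and 3.14, 26.0, 9.20 and 3.66 in KO + PBS, with the highest value in KO + PBS replicate 2 (2.29 ± 0.79, adjusted p = 0.0344, and 0.0520). Without that library Col9a1 had 2.27 ± 0.79, adjusted p = 0.0324, and Col9a3 had 1.32 ± 0.55, adjusted p = 0.0618. Col6a4 was above WT in every KO + PBS library (1.79 ± 0.45, adjusted p = 0.00839). Retina and pigmented epithelium markers, which belong to tissue next to the vitreous, summed to 71.3 to 386 CPM in WT, 53.0 and 128 in untreated KO and 67.3, 1717, 1439.8 and 1095 in KO + PBS, and lens markers to 49.5 to 129 CPM in WT, 55.8 and 38.7 in untreated KO and 1125, 4461, 232 and 974 in KO + PBS. In KO + PBS against KO all 7 corneal endothelium, 4 of 5 lens and 3 of 7 retina markers rose, and 6 of 10 keratocyte markers did, where 23.6% of all genes rose. Against WT, where 27.1% of all genes rose and 30% fell, 5 of 5 lens, 4 of 7 corneal endothelium and 0 of 7 retina markers rose, and 5 of 10 keratocyte markers fell; the part of these tissues in the type IX values was not tested.

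Within KO + PBS the libraries were far apart. The highest level of a collagen gene was 2.07 to 14.8 times its lowest within KO + PBS, 1.03 to 7.77 times within WT and 1.02 to 3.31 times within KO, groups of 4, 3 and 2 libraries. Replicate 2 held the highest value for 27 of the 34 genes, against 32.3% of all genes tested. Replicate 1 held the lowest for 22, for which the share over all genes was not computed. Col17a1 ran the other way, with its highest value in replicate 1. In the 9-library fit without replicate 2, 6 genes rose and 9 fell in KO + PBS against KO, where 27.9% of all genes rose and 35.4% fell. Against WT 4 rose and 18 fell, where 30.8 and 35.8% of all genes did. Against KO, those lower without it were Col5a3 (-1.40 ± 0.40), Col6a5 (-2.75 ± 0.44), Col6a6 (-1.59 ± 0.53), Col15a1 (-1.36 ± 0.44), Col16a1 (-0.85 ± 0.23), Col18a1 (-1.29 ± 0.38), Col20a1 (-0.58 ± 0.21), Col23a1 (-1.12 ± 0.26) and Col26a1 (-1.53 ± 0.47). Against WT, Col17a1 rose without it (0.65 ± 0.21, adjusted p = 0.0219), and Col3a1 fell (-1.51 ± 0.43, adjusted p = 0.0137). Keratocyte markers were also highest in replicate 2, at 5687 CPM, and lowest in replicate 1, at 739.5, and their part in the spread was not tested.

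**Figure D5:**
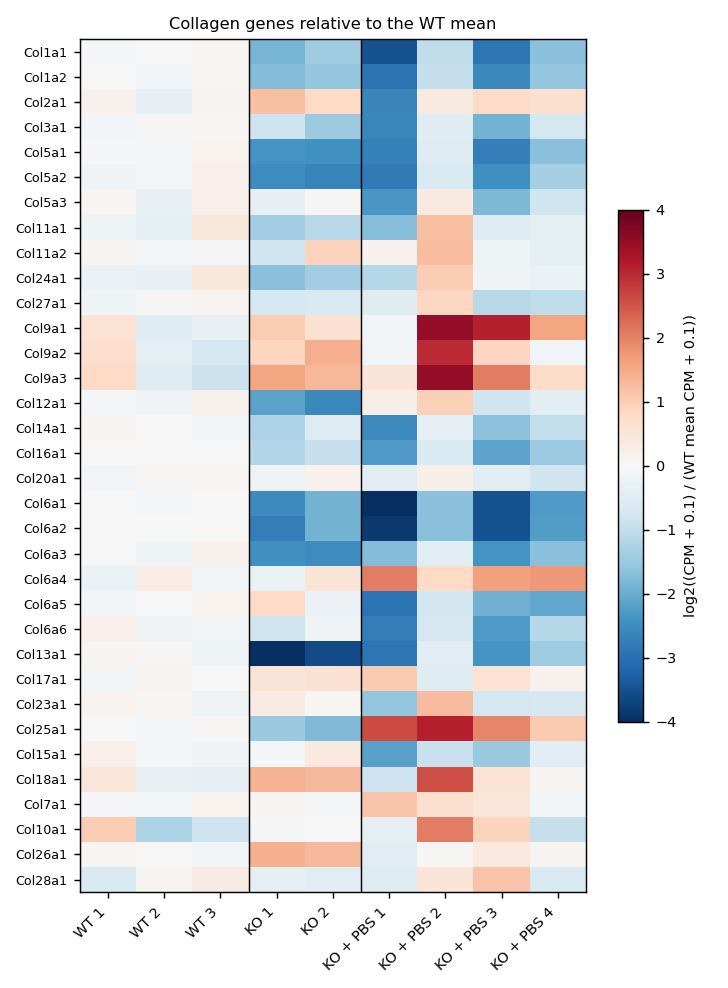
Level of each of the 34 tested collagen genes in each library relative to the WT mean, as log2 of (CPM + 0.1) over (WT mean + 0.1), with colours capped at 4 in either direction (blue lower, red higher). KO libraries are blue for the type I chains, Col5a1, Col5a2, the 3 main type VI chains, Col12a1 and Col13a1, and KO + PBS replicate 2 is less blue than replicates 1 and 3 for most stromal chains.

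Among genes that handle collagen, calls in the comparisons with KO + PBS are read against 23.6% of all genes higher and 29.7% lower against KO, and 27.1 and 30% against WT. Of the 22 modification, folding and export genes, 8 rose and 5 fell in KO + PBS against KO and 6 rose and 10 fell against WT. Colgalt1 was at 4.58 ± 0.978 CPM in KO and 36.2 ± 4.09 in KO + PBS (2.99 ± 0.22, adjusted p = 4.96e-06). Leprel1, a prolyl hydroxylase also called P3h2, was at 5.13 ± 1.021 and 53.3 ± 20.4 CPM (3.38 ± 0.41, adjusted p = 0.000144). Crtap, the partner of another prolyl hydroxylase, fell from 77.7 ± 10.3 to 35.0 ± 8.41 CPM (-1.15 ± 0.20, adjusted p = 0.00127). Mia3, which loads procollagen for export, rose from 30.5 ± 0.296 to 73.5 ± 12.7 CPM (1.27 ± 0.18, adjusted p = 0.000373). Of the 13 processing genes, 3 rose and 2 fell against KO and 2 rose and 5 fell against WT. Adamts3, a procollagen N-propeptidase, had 0 counts in both KO libraries, 2, 5 and 6 in WT and 189, 322, 129 and 198 in KO + PBS (adjusted p = 6.47e-05 against KO). Pcolce, the C-propeptidase enhancer, fell from 372 ± 119 to 104 ± 57.2 CPM (-1.84 ± 0.40, adjusted p = 0.00414). Of the 9 receptors, 2 rose against KO, Itgb1, the common chain of the collagen integrins, from 143 ± 13.2 to 221 ± 15.4 CPM (adjusted p = 0.00837), and Ddr2 from 11.6 ± 0.0407 to 27.3 ± 15.4 CPM (adjusted p = 0.0485), and against WT 1 rose and 2 fell.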

How the data were processed

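Per the labels, RNA was taken from corneas with a column kit and DNase and made into libraries with a NEBNext Ultra kit. The submitters' processing notes name fastp, STAR, featureCounts and the build mm10, with no versions. The deposited values are raw counts per gene name from the authors, in 1 table of 34165 names, 23 of which were date-like and left out. No source used here states the strand settings of kit or counting, so reads from overlapping antisense genes cannot be told apart. Libraries held 22913807 to 104480485 counts; values are TMM-scaled CPM (edgeR 4.0.16, R 4.3.3), per kilobase of GENCODE M21 exons where genes are compared.

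Tests were edgeR's quasi-likelihood test on all genes passing filterByExpr, in 1 fit to all 9 libraries, with Benjamini-Hochberg adjustment over all genes tested and a threshold of 0.05; the fit to only the groups compared (limma 3.58.1 loaded by edgeR), DESeq2 1.42.0, other scalings and filters, a replicate block and leaving out each library were alternatives. SEs are |log2 fold change| over the root of the F statistic. The scripts were tested on simulated data. Intervals on counts are exact Poisson-based 95% intervals and, like the 3-count limit, cover counting error only. Ratios were compared with exact permutation tests (scipy 1.17.1).

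The collagen genes, the gene lists and the markers were chosen with earlier results of these data known. Values in every library are given for each collagen gene called in KO against WT in the 9-library or the 5-library fit, for the 5 highest per length in WT, and for the 2 called genes with the largest change in each direction in each comparison with KO + PBS; from the modification, processing and receptor lists up to 4 genes were named per list and comparison by smallest adjusted p. Other genes given by library were chosen after their values were seen.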

Additional observations from a re-analysis of the deposited data

Results flagged for a closer look

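In the KO + PBS group, 3 of the 36 collagen genes had 1 library far from the other 3, and in each it was replicate 2. The gap between replicate 2 and the next library, as a share of the group's whole range, was 0.874 for Col9a2, 0.853 for Col23a1 and 0.833 for Col18a1 (all above Dixon's 95% critical value for 4 samples, which chance passes in about 1 group of 20). The rule was run on these 36 genes only, so no share over all genes stands beside the 3. At 1 in 20, chance alone flags some of 36 genes. Col9a2, a type IX chain, was at 1.59, 14.3, 3.19 and 1.60 CPM in replicates 1 to 4. Col23a1, a transmembrane collagen, was at 10.8, 78.2, 20.02 and 20.7 CPM. Col18a1, a basement membrane multiplexin, was at 8.94, 95.9, 23.5 and 17.1 CPM. Replicate 2 was the highest in all 3 genes. It also had the highest marker sums of the group, without TMM scaling, for lens, retina, keratocytes, fibroblasts, corneal endothelium, conjunctiva, cartilage and sclera, blood vessels, and pericytes and smooth muscle. The lens sum was 4461 CPM against 1125, 232 and 974, and the pericyte and smooth muscle sum was 407 CPM against 15.5, 49.8 and 30.1. For Schwann cells the sums were 270, 298, 271 and 280 CPM in replicates 1 to 4. They differed by less than the TMM factors (1.15, 1.54, 1.32 and 1.33), so that order depends on the scaling. The part of these tissues in the values was not tested.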

How the results depend on the processing

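In KO against WT the number of collagen genes that fell was 1 in the 9-library fit, 3 with no filter on low counts, 2 with at least 1 CPM in 3 libraries, 8 with DESeq2, 16 in the fit to the 5 untreated libraries and 3 over protein-coding genes counted in all 9 libraries. The number that rose was 0, and 1 with DESeq2 and 4 in the fit to 5 libraries. Over all genes, the shares that fell were 0.703, 0.647, 1.15, 3.03, 8.99 and 1.19%, with the settings in the order above. The shares that rose were 0.963% in the 9-library fit, 2.16% with DESeq2 and 11.5% in the fit to 5 libraries. In KO + PBS against KO 3 rose and 0 fell in the fit to these groups, where 20.7 and 22.8% of all genes did. Over protein-coding genes 3 rose, against 23.0% of all those tested. With no filter, with at least 1 CPM in 3 libraries or with upper-quartile scaling 2 fell, against 21.1, 30.6 and 26.4% of all genes. In the comparison with WT, RLE size factors, the filters, DESeq2 and the non-robust fit gave 12 to 14 lower and 4 or 5 higher. Of all genes, these settings gave 19.8 to 31.1% lower and 15.7 to 29.0% higher. Leaving out 1 library, the fit to all gave 0 higher and 0 to 10 lower in KO against WT, 2 to 7 and 0 to 9 in KO + PBS against KO, and 2 to 6 and 5 to 18 in KO + PBS against WT; the fits to 2 groups gave 0 to 3 and 10 to 15 (11 without WT replicate 2), 0 to 5 and 0 to 3, and 2 to 5 and 3 to 18. Where 1 KO library remained, it was assumed to vary like the others. The causes of these changes were not tested.

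Whether replicate numbers pair the libraries was not settled. Deviations of same-numbered libraries correlated at -0.25 to 0.23, and libraries with different numbers were not compared. With the replicate block, 0 fell and 0 rose in KO against WT, where 0.0162% of all genes fell and 0.0108% rose. In KO + PBS against KO 4 rose and 1 fell, where 17.6 and 25.1% of all genes did. In KO + PBS against WT 2 rose and 12 fell, where 20.8 and 26.4% did.

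Directions turned for genes that were not called in KO + PBS against KO. Leaving out 1 library at a time, Col1a1 ranged from -0.86 to 0.011 in the 9-library fit, Col1a2 from -0.58 to 0.11, Col6a1 from -0.87 to 0.090, Col6a2 from -0.75 to 0.34 and Col17a1 from -0.41 to 0.083. In the fits to 2 groups, Col1a1 was at 0.00070, Col1a2 at 0.045, Col6a1 at 0.080 and Col6a2 at 0.33 without KO replicate 2. There, Col1a2 was at 0.14 and 0.15 and Col6a2 at 0.013 and 0.032 without KO + PBS replicates 1 and 3, and Col17a1 was at 0.12 without KO + PBS replicate 2. With upper-quartile scaling Col1a2 was at 0.080 and Col17a1 at 0.017. Upper-quartile scaling moved the median of all genes from -0.02 to 0.17 in KO + PBS against KO and from 0.05 to 0.17 in KO + PBS against WT.

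Depth limits the genes near 3 counts a library, Col19a1, Col22a1, Col25a1 and Col28a1. By the longest transcript in place of the exon union, 10 of 15 levels per length moved by more than their SD.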
